A study of Mus musculus with 2 samples.

Results

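Of the genes expressed by the endothelium of the mouse adrenal gland, 6 channel genes are described here, out of 54838 gene identifiers counted in 2 single-cell libraries. They are Kcnj8, Kcne3 and Kcnj2, which encode subunits of potassium channels, and Piezo1, Piezo2 and Trpv4, which encode cation channels that respond to mechanical force. The 6 were found by symbol, and they were chosen with earlier results of these data known, including that Kcnj8 and Kcne3 were tip-like genes. All 6 were present in both libraries and passed the limit for a measured gene, 50 unique molecular identifiers (UMIs, 1 per captured transcript) over the endothelial cells of both libraries, as did 12278 genes in all.

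The cells came from both adrenal glands of female mice aged 12 weeks, digested with a protease in the cold and sorted as viable CD31+ CD45- cells, which keeps endothelial cells and removes most leukocytes. One library was labelled wild-type (WT) and 1 VEGF/LysM, and the study asked how VEGF-A from macrophages bears on the diversity of these cells. LysM names Lyz2, a gene of macrophages and other myeloid cells. The sources used here give neither the allele behind the label VEGF/LysM nor the number of mice per library. With 1 library per group, every comparison between WT and VEGF/LysM is a comparison of 2 libraries. It has no replicate check and carries no p-value, and all intervals are 95% intervals that cover counting error only.

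Inward-rectifier and voltage-gated potassium channels set the membrane potential of endothelial cells, and a more negative potential draws calcium into the cell. Kcnj8 encodes Kir6.1, the pore of the vascular ATP-sensitive potassium channel, which is assembled with the sulfonylurea receptor encoded by Abcc9. Kcnj2 encodes the inward rectifier Kir2.1, and Kcne3 encodes a small subunit that modifies voltage-gated channels such as the one encoded by Kcnq1. Piezo1 and Piezo2 encode channels opened by membrane stretch, Piezo1 being the known sensor of blood flow in endothelium and Piezo2 the known touch sensor of sensory neurons. Trpv4 encodes a calcium-permeable channel that is opened by cell swelling and shear and is known from arterial endothelium.

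The WT library kept 5677 endothelial cells with a median of 1153 UMIs, and the VEGF/LysM library 3516 with a median of 2287, so a share of cells with a UMI is higher in VEGF/LysM from depth alone. The libraries shared 10 of their deposited cell barcodes. Cells were clustered without the 6 genes or any other listed channel gene. One cluster was called tip-like (340 WT and 251 VEGF/LysM cells), after the leading cells of a growing vessel, because 6 of 12 tip cell markers were at least 2-fold higher in it. Its Apln level was 283 UMIs per 1000000 UMIs (CPM) in WT and 153 in VEGF/LysM, against 13.7 and 11.4 CPM in the other endothelial cells. Apln was the only marker of that list among its 10 leading genes, which also held Kcne3, Kcnj8 and Kcnj2. Capillary-like cells (776 and 724) were led by Car4, Cd36 and Aqp7, and arterial-like cells (252 and 254) by Tspan8, Lgr5 and Ptn, with 15 of 16 arterial markers raised. Not every tip marker was highest in the tip-like cluster. Col4a1 was at 1447 and 1672 CPM there and at 1611 and 1791 CPM in capillary-like cells, where Col4a2 and Angpt2 were also higher. Plaur was at 61.2 CPM in WT tip-like cells, against 71.6 CPM in the other endothelial cells of WT. The remaining large clusters carried Plvap, the fenestral diaphragm gene, at 700 CPM or more and are given by their leading genes. Clusters were formed from these same cells, so levels by cluster are a description.

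Kcnj8, the pore of the ATP-sensitive potassium channel, was higher in tip-like cells than in any other endothelial cluster of either library. Tip-like cells held 261 CPM of Kcnj8 in WT (128 UMIs, interval 218 to 310) and 275 CPM in VEGF/LysM (202 UMIs, 239 to 316). The other endothelial cells held 44.0 and 29.6 CPM. The tip-like level was thus 5.93-fold higher in WT (log2 2.57, interval 2.26 to 2.87) and 9.29-fold higher in VEGF/LysM (log2 3.22, 2.94 to 3.49). Outside the tip-like cluster, Kcnj8 was present at 26.9 to 68.7 CPM in the 6 largest Plvap clusters of either library. It was low in capillary-like cells, at 17.7 CPM in WT (17 UMIs in 9 cells) and 2.48 CPM in VEGF/LysM (4 UMIs), and in arterial-like cells, where 1 UMI was found in WT and none in VEGF/LysM, which allows up to 4.70 CPM.

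Kcne3 and Kcnj2, a modifying subunit and an inward rectifier, were also at their highest in tip-like cells of both libraries. Kcne3 reached 110 CPM in WT tip-like cells (54 UMIs, 82.7 to 144) and 77.7 CPM in VEGF/LysM tip-like cells (57 UMIs, 58.8 to 101), against 7.52 and 7.37 CPM in the other endothelial cells. This was 14.6-fold higher in WT (log2 3.87, 3.29 to 4.45) and 10.5-fold higher in VEGF/LysM (log2 3.40, 2.85 to 3.94). Kcnj2 reached 89.7 CPM in WT tip-like cells (44 UMIs, 65.2 to 120) and 74.9 CPM in VEGF/LysM (55 UMIs, 56.5 to 97.6), against 8.10 and 7.37 CPM elsewhere, 11.1-fold and 10.2-fold higher. The tip-like cells were 5.99% of WT and 7.14% of VEGF/LysM endothelial cells but held 50.9% and 48.7% of Kcne3 UMIs, 44% and 47.8% of Kcnj2 UMIs, and 29.6% and 45.6% of Kcnj8 UMIs.

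The sizes of these contrasts depended on the filter and the clustering, and their direction did not. Over the alternatives that gave a tip-like cluster, the log2 contrast ranged from 2.20 to 2.84 (WT) and 2.68 to 3.57 (VEGF/LysM) for Kcnj8. For Kcne3 it ranged from 3.45 to 4.54 and 3.01 to 4.26, and for Kcnj2 from 3.13 to 4.07 and 2.45 to 3.59. When cells were thinned to 1000 UMIs and clustered again, no cluster met the rule for tip-like.

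Among the 12278 measured genes ordered by the tip-like over other ratio, Kcne3 stood at place 4 in WT and 7 in VEGF/LysM, Kcnj2 at place 8 in both, and Kcnj8 at place 17 and 9. In WT, 3 of the 6 genes were at least 2-fold higher in tip-like cells, where 3.58% of all measured genes were. In VEGF/LysM, 4 of the 6 were, with Piezo2 as the fourth, where 3.39% of all measured genes were. These places and counts are a description from which nothing is read, since the tip-like pattern of Kcnj8 and Kcne3 was known when the genes were chosen. No UMI of the arterial-type channel gene Trpv4 was found in tip-like cells of either library, which allows up to 6.12 (WT) and 4.09 CPM (VEGF/LysM).

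**Figure D1:**
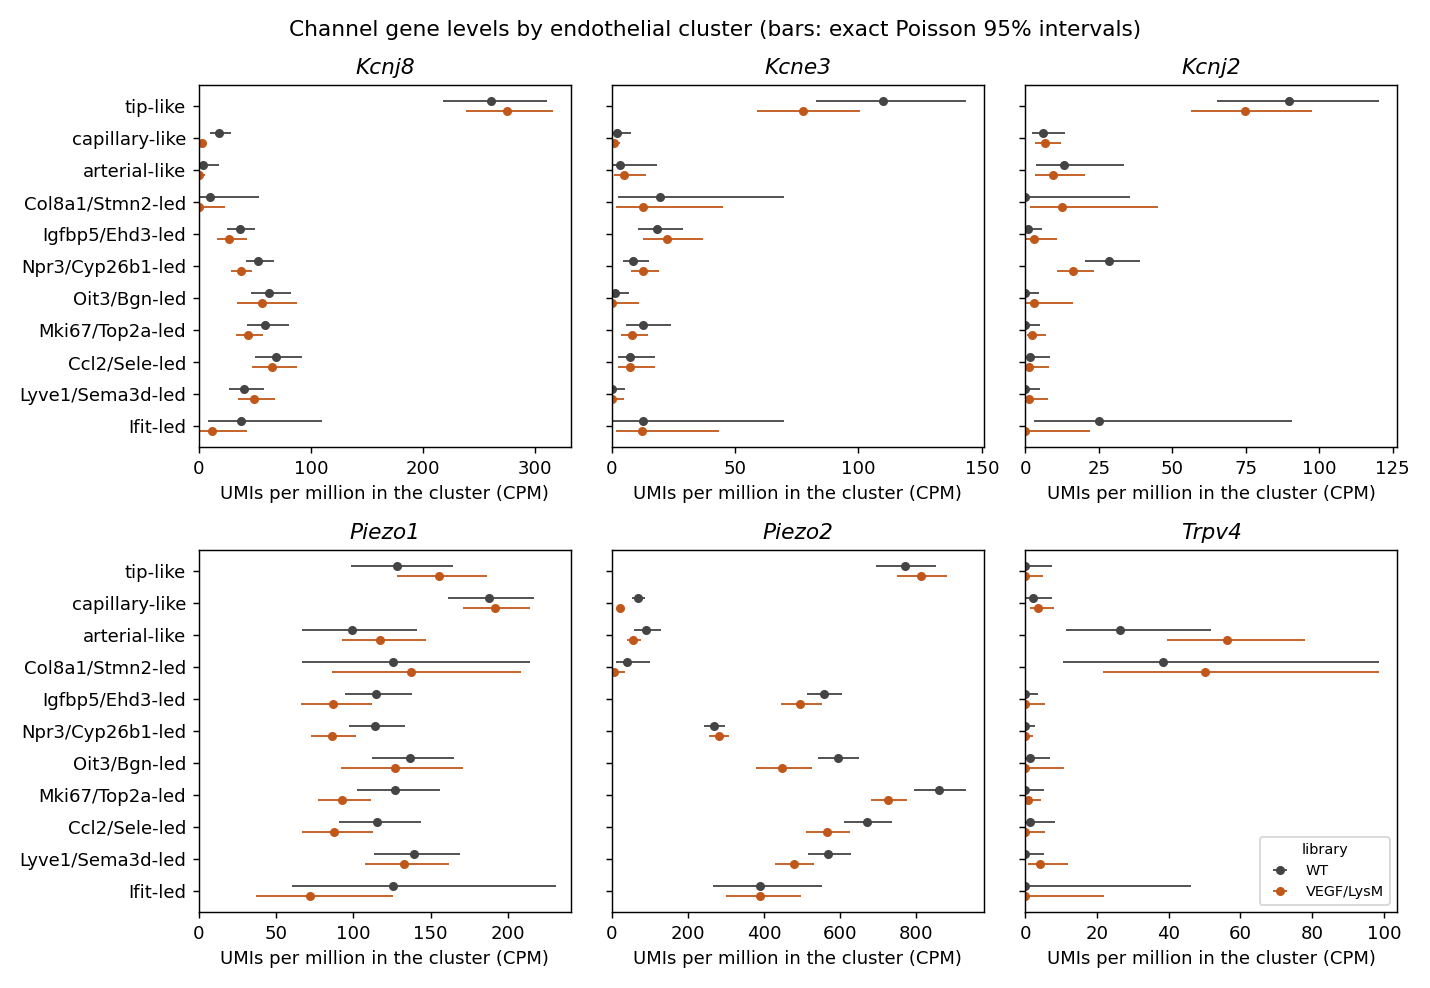
Level of each channel gene (horizontal axes, CPM of the cluster, each panel with its own scale) in 11 endothelial clusters named by class or leading genes. Points are the WT (grey) and VEGF/LysM (orange) libraries and bars are exact Poisson 95% intervals, and the 3 potassium channel genes peak in the tip-like row, Trpv4 in the arterial-like and Col8a1/Stmn2-led rows.

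The 3 potassium channel genes also differed among themselves outside tip-like cells. Of the Kcnj2 UMIs outside tip-like cells, 40 of 56 in WT and 27 of 60 in VEGF/LysM were in the cluster led by Npr3, Esm1 and Cyp26b1 (28.7 and 16.2 CPM). No other Plvap cluster with over 100 cells per library held more than 3 UMIs of Kcnj2. Kcne3 had 18 and 15 UMIs in the cluster led by Igfbp5 and Ehd3 (18.1 and 22.4 CPM), 12 and 21 in the Npr3-led cluster (8.61 and 12.6 CPM) and 9 and 10 in the Mki67-led cluster (12.7 and 8.01 CPM). It had no UMI in the cluster led by Lyve1 and Sema3d, which allows up to 4.17 and 4.10 CPM. Kcnj8 was spread over all Plvap clusters, and in WT its intervals overlapped among the clusters led by Oit3 (62.7 CPM), Mki67 (59.3 CPM), Ccl2 (68.7 CPM) and Npr3 (53.1 CPM).

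Because Kcnj8 and Abcc9 are also known from pericytes, the contractile cells that wrap capillaries, mural cell markers were counted in the same cells. Of 8 mural markers, 2 were detected in WT and 4 in VEGF/LysM tip-like cells, with a summed level of 12.2 and 12.3 CPM. Acta2, Cspg4, Des and Notch3 had no UMI there in either library, and Pdgfrb had 0 and 1. In the 4 WT and 3 VEGF/LysM cells called mural-like, the same markers summed to 18035 and 15152 CPM. Those few mural-like cells held 547 and 350 CPM of Kcnj8, from 4 and 3 UMIs. Myeloid-like cells served as a background class, although macrophages are known to express Kcnj2 and Piezo1. They held 678 and 634 CPM of Plvap, an endothelial gene, and 25.4 and 16.4 CPM of Kcnj8, 10.9 and 16.4 CPM of Kcne3, and 32.6 and 12.3 CPM of Kcnj2. The tip-like levels lay above these values, while the levels of Kcnj2 in the Npr3-led cluster and of Kcne3 in the Igfbp5-led cluster were within their intervals. The same held for Kcnj8 in the Igfbp5-led cluster of both libraries (36.3 and 26.9 CPM) and in the Lyve1-led cluster of WT (40.4 CPM), where the background intervals reached 52.3 and 32.4 CPM.

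At equal depth, the share of cells with a UMI of these genes was also higher in tip-like cells. Their median depth was 1247.5 UMIs in WT and 2750 in VEGF/LysM, and that of the other endothelial cells 1148 and 2246. After each cell was thinned to 1000 UMIs, 20.9% of WT tip-like cells (49 of 234) and 22.5% of VEGF/LysM tip-like cells (53 of 236) had a Kcnj8 UMI, against 24.7% and 39.8% unthinned. In the other endothelial cells the thinned shares were 3.92% and 3.03%, and in myeloid-like cells, with median depths of 2383.5 and 3343 UMIs before thinning, 1.19% and 2.17%. For Kcne3 the thinned share of tip-like cells was 10.3% in WT and 5.51% in VEGF/LysM (11.8% and 13.1% unthinned), and for Kcnj2 6.41% and 6.78% (10.6% and 15.9% unthinned). The other endothelial cells had 0.539% and 0.533% for Kcne3 and 0.629% and 0.733% for Kcnj2, and myeloid-like cells at most 1.19% for either gene.

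A definition of tip-like cells by 1 transcript, added after the first results, gave the same direction. It is no independent check, since Apln is on the marker list by which the tip-like cluster was named and many of the cells are the same. Cells with an Apln UMI outside that cluster were not set apart. The 182 WT and 118 VEGF/LysM endothelial cells with an Apln UMI, of which 97 and 50 lay in the tip-like cluster, held 153 and 238 CPM of Kcnj8 against 54.3 and 40.6 CPM in cells without one. They held 96.7 and 71.4 CPM of Kcne3 against 10.8 and 10.3 CPM, and 76.7 and 69.1 CPM of Kcnj2 against 10.8 and 10.2 CPM. Their median depth was 1442 and 3104.5 UMIs, against 1148 and 2258 in cells without an Apln UMI.

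The partner subunits followed with smaller contrasts. Abcc9, the regulatory partner of Kcnj8, whose gene lies 16247 bases from Kcnj8 on the same strand of chromosome 6, was at 155 (WT) and 125 CPM (VEGF/LysM) in tip-like cells, against 56.0 and 37.1 CPM in the others (2.77-fold and 3.38-fold). Kcnq1, which Kcne3 can modify, was at 204 and 144 CPM against 75.2 and 63.9 CPM (2.71-fold and 2.26-fold). The calcium-opened potassium channel genes did not share the higher level in tip-like cells. Kcnn3 had 5 and 2 UMIs in tip-like cells, and Kcnn4 had none there and 4 and 20 UMIs in arterial-like cells.

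**Figure D2:**
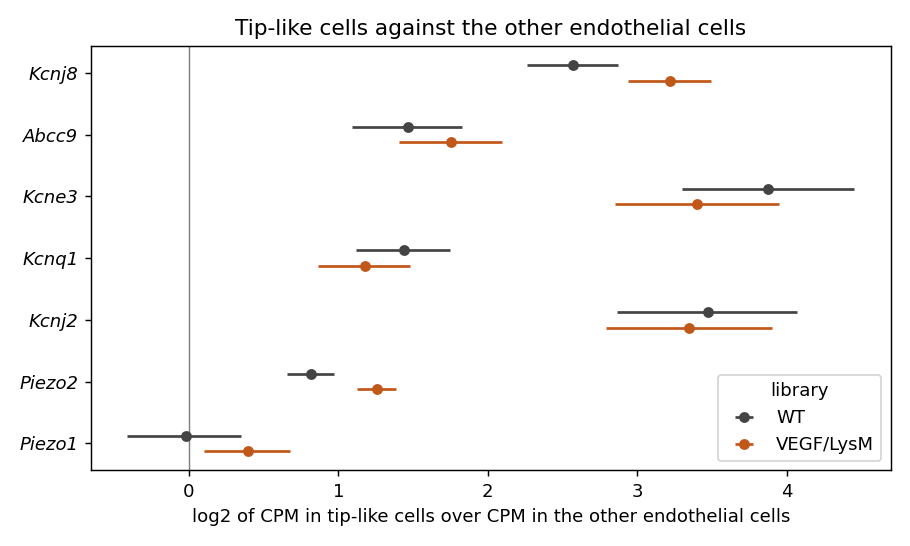
Log2 ratio of the level in tip-like cells to the level in the other endothelial cells (horizontal axis) for 5 channel genes and the partner genes Abcc9 and Kcnq1, in WT (grey) and VEGF/LysM (orange), with exact 95% counting intervals. Kcne3, Kcnj2 and Kcnj8 lie above 2 in both libraries and Piezo1 lies at -0.02 in WT and 0.39 in VEGF/LysM.

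The sequence before each start site is shown for the 3 potassium channel genes, since they share a high level in tip-like cells. The windows are from RefSeq's promoter table (GRCm38.p6) and run from 250 bases before the start to 50 after it, 5′ to 3′ on the strand of the gene. Capitals mark the core of the hypoxia response element, ACGTG or GCGTG on either strand. They are Kcnj8 at chr6:142571565-142571864 (minus strand), the first of 2 listed starts of Kcne3 at chr7:100176420-100176719 (plus strand) and Kcnj2 at chr11:111065914-111066213 (plus strand).
Kcnj8: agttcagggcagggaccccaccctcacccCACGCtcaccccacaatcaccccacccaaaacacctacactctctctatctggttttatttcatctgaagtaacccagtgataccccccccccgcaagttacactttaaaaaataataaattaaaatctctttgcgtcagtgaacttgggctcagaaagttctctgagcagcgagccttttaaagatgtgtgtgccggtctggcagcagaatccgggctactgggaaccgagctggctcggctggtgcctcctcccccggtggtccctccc
Kcne3: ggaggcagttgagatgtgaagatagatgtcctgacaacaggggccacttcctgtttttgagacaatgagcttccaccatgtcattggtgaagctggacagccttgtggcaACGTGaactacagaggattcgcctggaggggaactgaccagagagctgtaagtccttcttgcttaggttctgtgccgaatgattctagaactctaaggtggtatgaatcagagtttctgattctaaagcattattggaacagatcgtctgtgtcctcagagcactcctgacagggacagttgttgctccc
Kcnj2: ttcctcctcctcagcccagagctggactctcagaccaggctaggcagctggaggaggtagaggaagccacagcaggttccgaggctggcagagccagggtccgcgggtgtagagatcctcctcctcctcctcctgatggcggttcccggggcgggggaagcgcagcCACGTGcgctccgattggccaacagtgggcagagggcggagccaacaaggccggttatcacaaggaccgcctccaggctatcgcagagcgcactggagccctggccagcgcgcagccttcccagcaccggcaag
The marked core stood 221 bases before the start in Kcnj8 and 140 bases before it in Kcne3. In Kcnj2 it read CACGTG, which matches on both strands, 84 bases before the start. One of the 2 forms is found in 43.8% of the 32851 promoters of that table, so its presence in all 3 sets them little apart. In all, 12 motifs were searched on both strands, and no other one was in all 3 windows. The ETS core GGAAG, in 71.4% of promoters, was in the Kcne3 and Kcnj2 windows and not in that of Kcnj8, and the ETS forms CCGGAA (14.9%), CGGAAG (16.9%) and TTCCGGAA (0.712%) were in none. CAGGAA (30.6%) and the SOX site ACAATG (12.6%) were in the Kcne3 window only, and the E-box CACGTG (7.15%, overlapping ACGTG) and the GC box GGGCGG (35.7%) in the Kcnj2 window only. The FOX site TGTTTA (13.4%) and the TATA box TATAAA (13.6%) were in none of the 3. The window of the second Kcne3 start (chr7:100178433-100178732) differs: it has the G form of the hypoxia core at position 9 after the start, 2 GC boxes and no SOX site. The ETS core and CAGGAA are in the windows of both Kcne3 starts. Of all promoters in the table, the form ACGTG is in 19.6% and GCGTG in 32.4%. These are matches of letters and show no binding.

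In single tip-like cells the 3 potassium channel genes were seen together more often than the product of their shares gave. Kcnj8 and Kcne3 were both detected in 17 of 340 WT cells, where 10.97 were expected within bins of equal depth, and in 22 of 251 VEGF/LysM cells, where 16.3 were expected. Kcnj8 and Kcnj2 were together in 18 WT cells (9.03 expected) and 24 VEGF/LysM cells (16.1 expected). Kcnj2 and Kcne3 were together in 10 WT cells (4.32 expected) and 7 VEGF/LysM cells (5.14 expected). All 6 counts lay above the expected number. The counting interval of observed over expected excluded 1 for the pairs of Kcnj2 in WT only, with log2 values of 1.00 (0.24 to 1.66) with Kcnj8 and 1.21 (0.15 to 2.09) with Kcne3.

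All 3 genes were seen in 6 cells of each library, and at least 1 of them in 121 of 340 WT cells (35.6%) and 126 of 251 VEGF/LysM cells (50.2%). WT tip-like cells with both Kcnj8 and Kcne3 had a median of 1754 UMIs, those with neither 1156. In VEGF/LysM these medians were 3593 and 2455, so depth moved with co-detection, and depth that still varies within a bin was not removed. Over all endothelial cells, with the expected number taken within clusters, Kcnj8 and its partner Abcc9 were together in 76 WT cells (42.4 expected) and 75 VEGF/LysM cells (50.9 expected). Piezo1 and Piezo2 were together in 327 WT cells (334 expected) and 338 VEGF/LysM cells (345 expected).

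**Figure D3:**
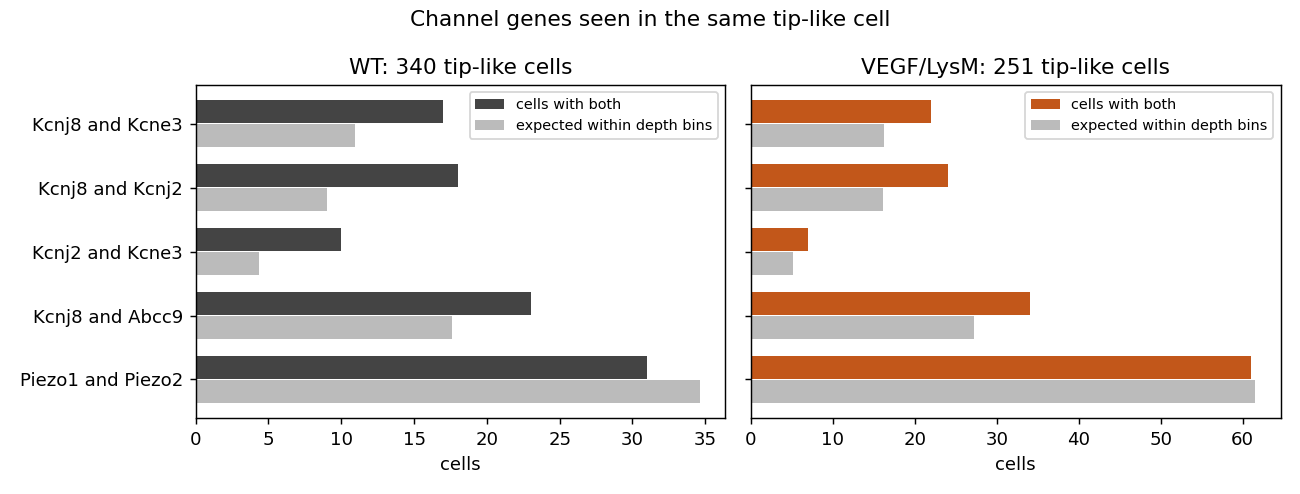
Number of tip-like cells in which both genes of a pair had a UMI (dark or orange bars) beside the number expected from their shares within 5 depth bins (light bars), in WT and VEGF/LysM. For pairs of potassium channel genes the bars are longer than the light ones, and for Piezo1 with Piezo2 they are not.

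Piezo1 (chr8:122481698-122551329, minus strand, GRCm38) was found in every endothelial class. Its level was highest in capillary-like cells, 187 CPM in WT (180 UMIs, 161 to 217) and 192 CPM in VEGF/LysM (310 UMIs, 171 to 214), against 121 and 106 CPM in the other endothelial cells (log2 0.63, 0.39 to 0.86, and 0.86, 0.67 to 1.05). Tip-like cells held 128 CPM in WT, against 130 CPM in the others (log2 -0.02, -0.41 to 0.35), and 155 CPM in VEGF/LysM, against 118 CPM (log2 0.39, 0.10 to 0.68). Arterial-like cells held 98.8 and 117 CPM. On thinned cells, 18.0% of WT and 16.6% of VEGF/LysM capillary-like cells had a UMI (19.6% and 31.6% unthinned), against 9.52% and 5.43% of myeloid-like cells. Piezo1 overlaps Gm20388 (6736 UMIs) and Ctu2 (161 UMIs) on the other strand, and the sources used here do not say whether strand was used in counting.

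Piezo2 was low where Piezo1 was highest. Its highest levels were in the cluster led by Mki67 and Top2a, at 860 (WT) and 726 CPM (VEGF/LysM), and in tip-like cells, at 771 CPM (378 UMIs, 695 to 852) and 812 CPM (596 UMIs, 748 to 880). The cluster led by Ccl2 and Sele followed with 670 and 566 CPM. Levels were lower in the cluster led by Npr3 and Cyp26b1, at 268 and 280 CPM, whose intervals did not reach those of the other large Plvap clusters. Capillary-like cells held 68.7 and 22.3 CPM and arterial-like cells 89.0 and 54.8 CPM. Tip-like cells were 1.76-fold above the other endothelial cells in WT (log2 0.82, 0.66 to 0.97) and 2.39-fold in VEGF/LysM (log2 1.26, 1.13 to 1.39). Set against Plvap clusters only, these log2 values were 0.51 and 0.75, and with another seed 1.24 and 1.44. On thinned cells, 47.4% and 47.0% of tip-like cells (54.7% and 72.1% unthinned), 3.59% and 0.940% of capillary-like cells, 7.64% and 6.17% of arterial-like cells, and 14.3% and 17.4% of myeloid-like cells had a Piezo2 UMI. The capillary-like and arterial-like shares were thus below those of the background class, whose Piezo2 level was 207 and 232 CPM. As given above, that class also held much Plvap, so it is not a clean floor for endothelial genes. The 32 WT and 44 VEGF/LysM cells called adrenocortical-like held 118 CPM (10 UMIs) and 25.5 CPM (7 UMIs) of Piezo2. In VEGF/LysM the arterial-like level of 54.8 CPM (38.2 to 76.2) lay above that of the adrenocortical-like cells (10.3 to 52.6), with intervals that overlapped. In WT the arterial-like level of 89.0 CPM lay below that of the adrenocortical-like cells. The capillary-like levels lay below it in both libraries.

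In capillary-like cells, 4 of the 6 genes were at least 2-fold lower than in the other endothelial cells in both libraries: Piezo2, Kcnj8, Kcne3 and Kcnj2. Of all 12278 measured genes, 1115 were so in both libraries. Taken by itself, each library had 13.3% of measured genes at least 2-fold lower. The other endothelial cells include the tip-like cells, which held 44% (WT) and 47.8% (VEGF/LysM) of Kcnj2 UMIs. Capillary-like cells held 6.25 and 6.81 CPM of Kcnj2, from 6 and 11 UMIs. The Plvap clusters, without the tip-like cells, held 8.21 and 6.37 CPM. Against the Plvap clusters, Kcnj2 was thus not 2-fold lower in either library. The capillary-like levels of Kcne3 rest on 2 and 1 UMIs.

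Trpv4 (chr5:114622152-114658421, minus strand, GRCm38) had few UMIs, with 16 in WT and 54 in VEGF/LysM endothelial cells. Arterial-like cells held 8 of the 16 (26.4 CPM, 11.4 to 51.9) and 36 of the 54 (56.4 CPM, 39.5 to 78.0). A small cluster led by Col8a1, Stmn2 and Fbln5 held 4 and 8 more (38.6 and 50.03 CPM), with intervals that overlapped those of arterial-like cells. The arterial-like level was 23.4-fold above the other endothelial cells in WT (log2 4.55, 2.94 to 6.16) and 25.8-fold in VEGF/LysM (log2 4.69, 3.83 to 5.59). Trpv4 was the only 1 of the 6 that was at least 2-fold higher in arterial-like cells, and it was so in both libraries, where 4.07% of measured genes were. Taken by themselves, the shares were 7.82% in WT and 6.62% in VEGF/LysM. The Plvap clusters together held 2 and 4 UMIs, and the myeloid-like cells 2 and 3. On thinned cells, 2.08% of WT and 5.29% of VEGF/LysM arterial-like cells had a UMI (3.17% and 9.84% unthinned), against 1.19% and 0% of myeloid-like cells, where 0 of 92 cells allows up to 3.26%.

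Between the libraries, the level of 5 of the 6 genes over all endothelial cells differed by less than 0.32 on the log2 scale, the limit used here for a difference. Kcnj8 was at 58.3 (WT) and 49.9 CPM (VEGF/LysM) (log2 -0.22, -0.42 to -0.03). Piezo2 was at 460 and 379 CPM (log2 -0.28, -0.35 to -0.21). Piezo1 was at 130 and 121 CPM (log2 -0.10, -0.23 to 0.03), Kcne3 at 14.3 and 13.2 CPM (log2 -0.12, -0.51 to 0.27), and Kcnj2 at 13.5 and 12.97 CPM (log2 -0.06, -0.46 to 0.34). Trpv4 was at 2.16 (WT) and 6.09 CPM (VEGF/LysM), 2.82-fold higher (log2 1.49, 0.67 to 2.40). So 1 of 6 genes lay past the limit, where 21.2% of all 12278 measured genes did. Piezo2 was past it with the stricter cell filter (-0.38) and with cells thinned to 1000 UMIs (-0.45). The median log2 ratio was -0.11 over the 6 genes and -0.03 over all measured genes.

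The mix of cells moved with these ratios. Arterial-like cells were 4.44% of WT and 7.22% of VEGF/LysM endothelial cells, and capillary-like cells 13.7% and 20.6%. With the clusters given equal weight in both libraries, the log2 ratio was 0.93 for Trpv4 and -0.19 for Piezo2. Within arterial-like cells Trpv4 had 44 UMIs in all, too few for the limit, and a log2 ratio of 1.10 (-0.03 to 2.41).

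Within tip-like cells, 1 of the 5 genes measured there was past the limit, where 32.7% of measured genes were. It was Kcne3, at 110 (WT) and 77.7 CPM (VEGF/LysM) (log2 -0.50, -1.07 to 0.06), an interval that includes no difference. Kcnj8 had a log2 ratio of 0.08 (-0.25 to 0.41), Kcnj2 of -0.26 (-0.86 to 0.35), Piezo1 of 0.27 (-0.18 to 0.74) and Piezo2 of 0.08 (-0.11 to 0.27). For Kcnj8 the lower level over all endothelial cells in VEGF/LysM stood beside a tip-like ratio of 0.08, while outside tip-like cells it was 44.0 (WT) and 29.6 CPM (VEGF/LysM) (log2 -0.57, -0.82 to -0.32).

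Within capillary-like cells, 1 of 2 measured genes was past the limit, where 30.7% of measured genes were. Piezo2 was at 68.7 (WT) and 22.3 CPM (VEGF/LysM) (log2 -1.63, -2.25 to -1.02), and Piezo1 had a log2 ratio of 0.03 (-0.24 to 0.31). Plvap, which marks the other capillaries, was also lower in the VEGF/LysM capillary-like cells, at 185 and 89.7 CPM, and its part in the Piezo2 difference was not tested. Over the alternatives the Piezo2 log2 ratio in capillary-like cells ranged from -2.46 to -1.04. Within arterial-like cells, 1 of 2 measured genes was past the limit, where 36.6% of measured genes were: Piezo2, at 89.0 and 54.8 CPM (log2 -0.70, -1.47 to 0.08). Both the capillary-like and the arterial-like levels of Piezo2 were below those of the myeloid-like background class. In adrenocortical-like cells Piezo2 was also lower in VEGF/LysM, at 118 (WT) and 25.5 CPM (VEGF/LysM), from 10 and 7 UMIs. Whether background RNA has a part in these differences was not tested.

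In the 6 largest Plvap clusters, the genes past the limit were all lower in VEGF/LysM. The shares of measured genes given beside them count differences either way, so nothing is read from the shared direction. The median log2 ratio of all measured genes in these clusters lay between -0.04 and -0.01. In the Npr3-led cluster they were 3 of 4 measured genes, where 25.9% of measured genes were past it. Kcnj2 was at 28.7 and 16.2 CPM there (log2 -0.83, -1.59 to -0.08), Kcnj8 at 53.1 and 37.2 CPM (log2 -0.51, -1.02 to -0.01) and Piezo1 at 114 and 86.4 CPM (log2 -0.40, -0.74 to -0.07). The Kcnj2 levels lay within the interval of the background class. In the Mki67-led cluster they were 2 of 3 (32.2% of measured genes), Piezo1 at 127 and 92.9 CPM (log2 -0.45, -0.86 to -0.04) and Kcnj8 at 59.3 and 44.1 CPM (log2 -0.43, -1.03 to 0.19). In the Igfbp5-led cluster they were 2 of 3 (35.1%), Kcnj8 (log2 -0.43, -1.33 to 0.42) and Piezo1 (-0.41, -0.89 to 0.06). One of 3 was past it in the Oit3-led cluster (36.3%), Piezo2 (-0.41, -0.68 to -0.14), and 1 of 3 in the Ccl2-led cluster (29.8%), Piezo1 (-0.39, -0.91 to 0.11). In the Lyve1-led cluster it was 0 of 3 (30.4%), with Piezo1 at -0.07 (-0.49 to 0.35).

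**Figure D4:**
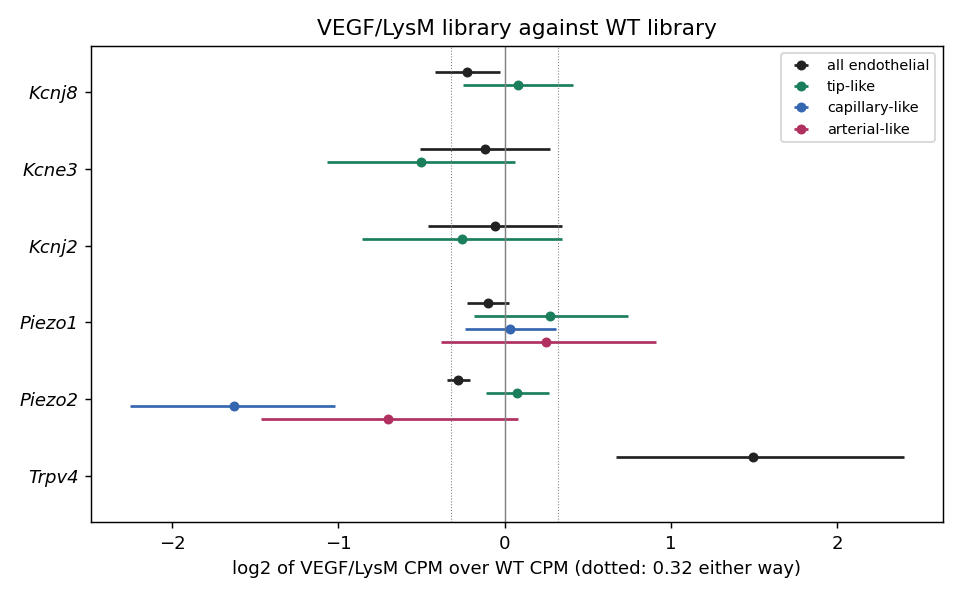
Log2 ratio of the VEGF/LysM to the WT level (horizontal axis) for each gene with at least 50 UMIs in the group, over all endothelial cells and within 3 classes, with exact 95% counting intervals and dotted lines at 0.32 either way. Trpv4 lies to the right of the dotted lines (1.49) and Piezo2 in capillary-like cells to the left (-1.63).

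Other genes of the same families were taken from lists by symbol. The potassium channel list held 101 genes, each symbol in the files that starts with Kcn, with Abcc8 and Abcc9. It therefore took in genes that encode no channel subunit, such as Kcnq1ot1 and Kcnrg, which were both measured. Of the 101 genes, 18 were measured and 35 had no UMI. Of the 18, 5 were at least 2-fold higher in tip-like cells of both libraries, beside 151 of all 12278 measured genes (1.23%). These 5 were Kcnj8, Kcne3, Kcnj2, Abcc9 and Kcnq1, of which the first 3 were chosen with such results known. Between the libraries, 2 of the 18 were higher in VEGF/LysM by the same limit and 8 lower, with a median log2 ratio of -0.25. Of all measured genes, 9.95% were higher and 11.3% lower, with a median of -0.03. The 2 higher ones were the voltage-gated channel genes Kcnc2 (35.2 and 62.7 CPM) and Kcna5 (12.96 and 19.1 CPM). In capillary-like cells Kcnc2 was at 153 and 241 CPM and Kcna5 at 75.0 and 81.1 CPM, the highest of the 3 named classes. Of 44 mechanosensitive and TRP channel genes, 18 were measured, 3 higher and 2 lower in VEGF/LysM, counts near these shares, with a median log2 ratio of -0.05. None of these was at least 2-fold higher in tip-like cells of both libraries, where 1.23% of measured genes were. Among them Trpm3 was at 201 and 175 CPM in arterial-like cells and 6.12 and 4.09 CPM in tip-like cells, and Mdfic, whose product binds Piezo channels, was at 282 and 310 CPM in capillary-like cells.

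Likeness of pattern was described by Pearson's r of log2(CPM + 5) over 12 endothelial clusters, averaged over the 2 libraries, among 9040 genes. The clusters share libraries, so r is a description only. The nearest gene was Tnip1 for Kcnj8 (r = 0.941), Pold3 for Kcne3 (0.892), Mpp6 for Kcnj2 (0.835), Tmem173 for Piezo1 (0.917), Edil3 for Piezo2 (0.987) and Fbn1 for Trpv4 (0.990). The next 2 were Abhd17b and Myo6 for Kcnj8, Kctd12b and Fam3c for Kcne3, Deptor and Dars for Kcnj2, Zfp950 and Vta1 for Piezo1, Maf and D5Ertd615e for Piezo2, and Ptprr and Mannr for Trpv4. The pattern of Trpv4 rests on 70 UMIs.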

How the data were processed

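In all, 2 libraries of sorted adrenal endothelial cells were analysed, 1 WT and 1 VEGF/LysM. The deposited values were UMI counts per gene and cell, not normalized, made with Cell Ranger 7.0.1 and Seurat on mm10 per the submitters' processing notes, and with Cell Ranger 7.0.0 per the file headers. The sources used here do not give the annotation, intron counting or strand setting. The files held 8606348 UMIs in 6276 barcodes (WT) and 10323972 in 3807 (VEGF/LysM).

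Kept barcodes had at least 500 UMIs, at least 300 genes and no more than 15% of UMIs from mitochondrial genes (142 and 14 left out), and the highest Scrublet scores, 0.8% per 1000 barcodes, were removed (315 and 116). Cells of both libraries were clustered together with scanpy 1.11.5 (2000 variable genes, 30 components, 15 neighbours, Leiden at resolution 1) without the 145 genes of the channel lists. UMIs were summed per library and class and scaled to CPM. Ratios have exact conditional binomial intervals, levels exact Poisson and shares exact binomial (Clopper-Pearson) intervals, and a count of 0 allows up to 3 counts. The ratio and co-detection steps were tested on simulated data. Expected co-detection is the product of shares within cluster and 5 depth bins.

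The 6 genes, the lists and the marker lists were chosen with earlier results of these data known, and the limits by which clusters were named were chosen once the clusters were known. Besides the 6, the genes named are the partners Abcc9, Kcnq1, Kcnn3 and Kcnn4, list genes with at least 20 CPM in all endothelial cells or 50 CPM in 1 class of both libraries, the 3 genes most like each, among genes with at least 200 UMIs over clusters of at least 50 cells per library, and the leading genes of clusters. Piezo2 spans chr18:63010213-63387183 and Kcne3 overlaps an antisense gene with 33 UMIs. Gene positions are from GENCODE M21 (GRCm38). Protein sequences were not used here.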

Additional observations from a re-analysis of the deposited data

How the results depend on the processing

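Part of the values was recomputed under other cell filters, doublet handling, depths, scalings, clusterings and comparison cells. These were the VEGF/LysM over WT ratios over all endothelial cells and within tip-like, capillary-like and arterial-like cells, and the counts past the limit. The tip-like contrasts, except that of Trpv4, and the pairs among Kcnj8, Kcne3 and Kcnj2 in tip-like cells were also recomputed. The arterial-like contrast of Trpv4, the capillary-like contrasts, those of Abcc9 and Kcnq1, and values by Plvap cluster were not. Of the recomputed values 231 stayed within the counting interval of the reported value, or within 1.5 times a reported count, and 37 did not. None changed the sign of a value whose interval excluded 0. The levels of Kcnj8, Kcne3 and Kcnj2 in tip-like cells over the other endothelial cells stayed at log2 2.20 or above in each alternative that gave a tip-like cluster, and the tip-like cluster itself ranged from 120 to 440 WT and from 95 to 326 VEGF/LysM cells. An alternative added after the data were seen, thinning cells to 1000 UMIs and clustering them again, gave no cluster named tip-like, so it has no tip-like values. The planned thinning was therefore run on the clusters of the full counts, and this choice was made after that outcome was seen.

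For tip-like over other cells (log2), Piezo2 in WT was 1.05 with every deposited barcode, 1.15 at resolution 0.5, 1.05 at resolution 2, 1.24 with another seed and 0.51 against Plvap clusters only. In VEGF/LysM Piezo2 was 1.39 with every barcode, 1.41 with no doublet removal, 1.46 at resolution 0.5, 1.53 at resolution 2, 1.11 with channel genes in the clustering, 1.44 with another seed and 0.75 against Plvap clusters only. Kcnj8 was 2.20 in WT with another seed, and in VEGF/LysM 2.91 with the stricter filter, 3.57 at resolution 0.5 and 2.68 against Plvap clusters only. Kcne3 was 4.54 in WT with thinned cells, and in VEGF/LysM 4.00 with every barcode, 4.23 with the stricter filter and 4.26 with channel genes in the clustering. Kcnj2 was 4.07 in WT at resolution 2, and in VEGF/LysM 2.68 with no doublet removal and 2.45 with another seed. Piezo1 in VEGF/LysM was 0.69 against Plvap clusters only.

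For VEGF/LysM over WT (log2), Piezo2 over all endothelial cells passed the limit of 0.32 at -0.38 with the stricter filter, -0.45 with thinned cells, -0.45 with thinned cells clustered again, and was -0.19 with an equal mix of clusters. Kcne3 over all endothelial cells was -0.54 with thinned cells clustered again. In tip-like cells Piezo2 was -0.15 with the stricter filter and -0.14 with another seed, and Kcnj2 was 0.45 with thinned cells. In capillary-like cells Piezo1 was 0.37 at resolution 2, and Piezo2 was -2.26 with thinned cells and -2.46 with thinned cells clustered again. With a minimum of 20 UMIs, 2 genes in place of 1 were past the limit in capillary-like cells and 2 in place of 1 in arterial-like cells, since more genes were then counted. The cause of the other shifts was not tested. No paired analysis was possible because each group has 1 library. Depth limits Trpv4 most, with 70 UMIs in all.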

Other observations

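Partners of calcium entry and of the spread of hyperpolarization between cells, 18 genes listed by symbol and all measured, were set beside the channels. Of these, 6 were at least 2-fold higher in arterial-like cells of both libraries (Panx1, Gja4, Gja5, Itpr3, Orai1 and Atp2a3), where 4.07% of all measured genes were. None was so in tip-like cells, where 1.23% of all measured genes were. Gja4 and Gja5 are among the markers by which the arterial-like class was named. Their high levels there follow in part from the name, and nothing is read from the arterial-like count. The gap junction gene Gja4 was at 389 (WT) and 373 CPM (VEGF/LysM) in arterial-like cells and at 4.08 and 12.3 CPM in tip-like cells, and Gja5 at 142 and 102 CPM against 0 and 2.73 CPM. The calcium pump gene Atp2a3 was at 128 and 130 CPM in arterial-like cells, and the store-operated channel gene Orai1 at 122 and 133 CPM. Cav1, which forms caveolae, was at 2381 and 2293 CPM in capillary-like cells. Nos3, the endothelial nitric oxide synthase gene, was at 104 to 119 CPM in WT in all 3 classes, and at 98.1 to 141 CPM in VEGF/LysM.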
